A study of Mus musculus with 2 samples.

Results

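The genes described here encode the machinery that carries proteins into mitochondria, and the data show where the transcription factor ELF1 lay at their promoters in a mouse B cell line. They were all protein-coding RefSeq genes whose symbol begins with Tomm or Timm followed by a digit, together with Samm50, Mtx1, Mtx2, Pam16, Dnajc19, Grpel1, Hspa9, Chchd4, Gfer, Pmpca and Pmpcb. This gave 36 genes of the 21317 protein-coding genes with a known strand on chromosomes that carried peaks. The rule itself uses gene names only. ELF1 was mapped by ChIP-seq, which sequences the DNA fragments that an antibody brings down from chromatin, in CH12.LX, an immortalized B-cell lymphoma line of the mouse strain B10.H-2aH-4bp/Wts. There was 1 group of 2 biological replicates of this line, without a treatment, a second genotype or a second time point in the labels. A peak is a place where fragments pile up, its summit is the highest point, and its signal is the value the peak caller gave it. That signal ranks peaks within a list and has no stated unit.

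Most mitochondrial proteins are encoded in the nucleus, made in the cytosol and imported. The TOM complex of the outer membrane is the common entry gate, from which proteins are passed to the SAM complex for insertion of barrel-shaped outer membrane proteins, to the small TIM chaperones of the space between the membranes, or to the TIM22 and TIM23 complexes of the inner membrane. A motor built on the mitochondrial Hsp70 pulls proteins into the matrix, where a peptidase removes their targeting sequence, and a disulfide relay traps small cysteine-rich proteins between the membranes. ELF1 belongs to the ETS family of transcription factors, which bind DNA around the core GGAA.

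The bases under the summits are shown first, because the peaks with the longer ETS word differed in signal from those without it. The word was CCGGAAG, read on both strands (CTTCCGG on the other strand), within 50 bp of the summit in the older list of both replicates on the mm9 build, the only build for which a genome sequence was used. The strongest mm9 promoter peak of each role is given with the word nearest its summit in capitals, or the core GGAA where the longer word was not in the window, and 10 bases to each side. Each runs 5′ to 3′ on the strand that reads the word forward. No gene of the disulfide relay had an mm9 promoter peak.
Tomm22, chr15:79501244-79501270, plus strand: cggctcgcttCCGGAAGacgctctgtc
Tomm7, chr5:23349937-23349963, plus strand: tgtccggatcCCGGAAGggagaggagc
Tomm34, chr2:163896831-163896857, plus strand: cagcttccacCCGGAAGctagggctgc
Timm10, chr2:84667152-84667178, minus strand: cttctttgatCCGGAAGaaaacgccga
Timm23, chr14:33015108-33015134, plus strand: tgtgtgcggcCCGGAAGtgggaagcgc
Grpel1, chr5:36807620-36807646, minus strand: tctgggagccCCGGAAGgtgaggaggt
Pmpca, chr2:26244805-26244831, plus strand: gctcggcgggCCGGAAGccagcgccga
Samm50, chr15:84022578-84022601, minus strand, core GGAA: aagaacgccaGGAAgcccagtgca
Timm22, chr11:76220377-76220400, plus strand, core GGAA: cggctttctgGGAAgtgtagtcag
Timm9, the weakest mm9 promoter peak, chr12:72237820-72237843, minus strand, core GGAA: ccgttgccgtGGAAaaggaagtga

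ELF1 lay at the promoters of nearly all of these genes. A gene was counted as bound when a summit of the optimal list on the mm10 build lay within 1 kb of its RefSeq 5′ end. By this rule 33 of the 36 genes were bound (91.7%). Of all protein-coding genes tested, 39.5% were bound by the same rule. The 3 without such a peak were Tomm20l, Timm8a2 and Gfer. The optimal list holds 29086 peaks selected from both replicates and their pool by the irreproducible discovery rate. Presence in it does not mean that each replicate alone had the peak. Signals ran from 24.0 at Timm17b to 445 at Tomm40, with a median of 157, against a median of 97.1 over the promoter peaks of all 8412 bound genes. Of the 33 peaks, 24 (72.7%) exceeded that median, and 16 (48.5%) were among the 2908 strongest peaks of the list, where 29.8% of all bound genes had theirs. Only 1 group was studied and the genes were not sampled at random, so these shares are descriptions with no test.

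**Figure D1:**
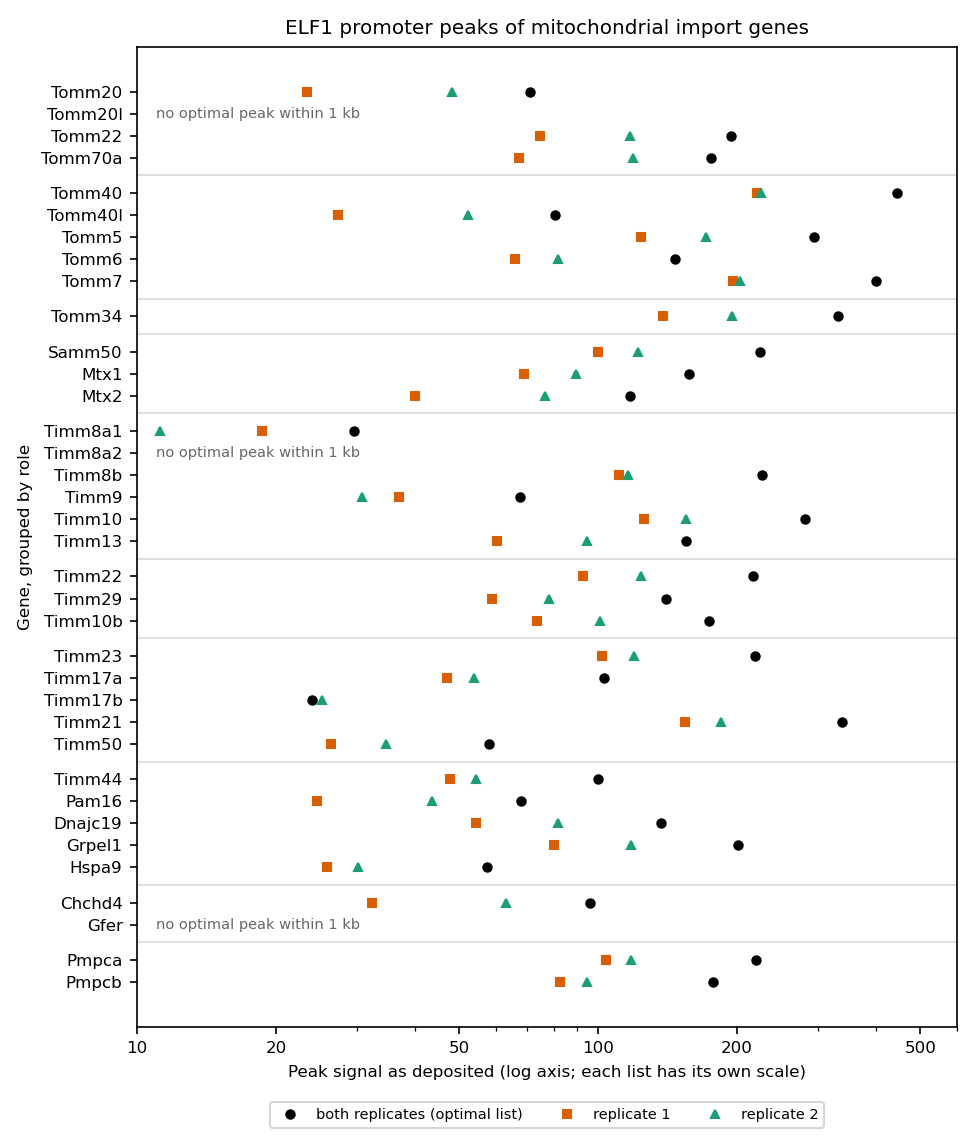
Signal of the strongest ELF1 summit within 1 kb of the RefSeq 5′ end (log axis) for each of the 36 genes, grouped by role, in the optimal list (circles) and at the same place in replicate 1 (squares) and replicate 2 (triangles). Tomm40, Tomm7, Timm21 and Tomm34 lie farthest to the right, Timm17b and Timm8a1 farthest to the left, and 3 genes have no optimal peak.

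Among the genes of the TOM complex, the pore and small subunits had a median signal of 294 and the bound receptors 176, with overlapping ranges (80.4 to 445 and 71.2 to 194). Tomm40, which forms the pore, had the strongest peak of the 36 genes, with a signal of 445 in the optimal list, 221 in replicate 1 and 225 in replicate 2. Tomm7, a small subunit that affects the assembly of the complex, had 400.4, 196 and 203 in the same order. These signals were above those of 97.3% and 95.3% of all bound genes, and both replicates placed the peaks of both genes among their 543 strongest entries. This Tomm40 summit lay 560 bp upstream of the 5′ end. A nearer optimal summit, 27 bp upstream of the Tomm40 5′ end, had a signal of only 42.2. The small subunit gene Tomm5 had 294, 124 and 171, and Tomm6 had 147, 66.0 and 81.9. Tomm40l, a relative of the pore gene, was the lowest of this set with 80.4, 27.3 and 52.2. Of the receptors, Tomm22, which holds the complex together, had 194, 74.6 and 117. Tomm70a, the receptor for proteins without a cleaved targeting sequence, had 176, 67.2 and 119. Tomm20, the receptor for cleaved targeting sequences, had 71.2, 23.4 and 48.2, lower than the other two receptors in each list. Tomm34, whose product is a cytosolic cochaperone, had 332, 138 and 195.

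Each gene for outer membrane sorting had a peak of middle to high signal. Samm50, which inserts barrel-shaped proteins, had a signal of 224 in the optimal list, 100 in replicate 1 and 122 in replicate 2. Its partners of the metaxin family followed, Mtx1 with 157, 69.1 and 89.7 and Mtx2 with 117, 40.0 and 76.6. The order of these 3 genes was the same in both replicates and in the optimal list, which is drawn from them.

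The small TIM chaperones, which escort hydrophobic proteins between the membranes, differed widely. Timm10 had a signal of 281 in the optimal list, 126 in replicate 1 and 155 in replicate 2, and its hexamer partner Timm9 had 67.6, 37.0 and 30.7. Timm8b had 227, 111 and 116, and Timm13 had 155, 60.4 and 94.4. Timm8a1, the mouse counterpart of the gene of a human deafness and dystonia syndrome, had 29.5, 18.7 and 11.2. Its replicate 2 entry ranked 35422, outside the 29086 strongest of that replicate. The conservative list, a second selection from the same libraries, had no summit within 1 kb of Timm8a1. Timm10 and Timm8b therefore lay far above Timm8a1 in both replicates, with no overlap of the values.

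The TIM22 complex inserts carrier proteins into the inner membrane, and its 3 genes had peaks of similar signal. Timm22, the channel, had 217 in the optimal list, 92.7 in replicate 1 and 124 in replicate 2. Timm10b, which docks the chaperones, had 174, 73.8 and 101, and Timm29 had 140.4, 58.8 and 78.2. The TIM23 complex, the channel for proteins with a targeting sequence, spanned a wider range. Timm21, which contacts the TOM complex, had 338, 154 and 185. Timm23, the channel subunit, had 219, 102 and 119.7. Timm17a had 103, 46.9 and 53.8, and the receptor Timm50 had 58.0, 26.3 and 34.6. Timm17b had the weakest promoter peak of the 33 in the optimal list, with 24.0. In replicate 2 it had 25.2, above Timm8a1, and replicate 1 had no entry within 100 bp of the summit. Its strongest entry within 1 kb of the Timm17b start had a signal of 10.2 and rank 27725.

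The motor and the enzymes of the matrix side were all bound. Grpel1, the nucleotide exchange factor of the motor, had a signal of 201 in the optimal list, 80.3 in replicate 1 and 118 in replicate 2. The cochaperone genes Dnajc19 and Pam16 had 137, 54.4 and 82.0, and 68.1, 24.6 and 43.5. Timm44, the anchor of the motor at the channel, had 100, 47.8 and 54.4. Hspa9, the Hsp70 itself, had 57.4, 25.8 and 30.2, the lowest of the motor genes in the optimal list and replicate 2, while Pam16 was the lowest in replicate 1. The genes of the peptidase that removes targeting sequences had close values, with 220.2, 104 and 118 for Pmpca and 177, 82.6 and 94.4 for Pmpcb. In the disulfide relay, the oxidoreductase gene Chchd4 had 95.9, 32.3 and 63.0, and the gene of its oxidase partner, Gfer, had no optimal peak.

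The 3 genes without an optimal promoter peak were not alike. Gfer had a conservative peak of signal 27.3 with the summit 11 bp from its 5′ end. The strongest entry within 1 kb of the start lay 11 bp from it in replicate 1 (signal 11.6, rank 23522) and 120 bp from it in replicate 2 (signal 19.3, rank 18584), and both ranks are within the 29086 strongest. The nearest optimal summit was 8843 bp away. Tomm20l, a relative of Tomm20, had no entry within 1 kb in the pooled relaxed list or in replicate 2, and 1 entry of signal 3.37 and rank 253649 in replicate 1. Its nearest optimal summit, of signal 62.3, lay 2674 bp inside the gene. Timm8a2 had an entry of signal 5.95 and rank 273871 in the pooled relaxed list, one of signal 3.46 and rank 236087 in replicate 1 and none in replicate 2, and its nearest optimal summit was 21427 bp away. The relaxed lists hold 300000 entries each, peaks and background alike, so ranks this low are near the end of the list.

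Related genes often differed in signal, although Pmpca and Pmpcb were close, with optimal signals of 220.2 and 177. Tomm40 and Tomm40l had optimal signals of 445 and 80.4, and Timm17a and Timm17b had 103 and 24.0. The 445 belongs to a summit 560 bp upstream of Tomm40. At the optimal summit nearest the start the order was reversed, with 42.2 at Tomm40 and 80.4 at Tomm40l. Tomm20 had 71.2 where Tomm20l had no peak, and Timm8a1 had 29.5 where Timm8a2 had none. Grpel1 stood below its relative Grpel2, with 201 against 326 in the optimal list, 80.3 against 164 in replicate 1 and 118 against 164 in replicate 2. Dnajc19 stood above Dnajc15, with 137 against 43.9, 54.4 against 12.0 and 82.0 against 27.9. Mtx3, at 97.1, was below Mtx1 and Mtx2. In each of these comparisons of the strongest summits of bound relatives with a value in both replicates, the replicates gave the same order as the optimal list. That list comes from the same 2 libraries, so it is not a separate check.

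The lowest 2 optimal signals of the 33 belonged to the members on the X chromosome, Timm8a1 and Timm17b. Over all genes, 198 of 954 X-linked genes were bound (20.8%), with a median signal of 70.4, against 40.3% and 98.0 on the autosomes. The replicate medians were 32.9 and 41.1 on the X chromosome and 44.7 and 58.5 on the autosomes. Both import genes were below the X-linked median, and the part of the chromosome in their values was not tested.

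The replicates found nearly all of these promoter peaks. The optimal list was itself selected from these replicates, so this is not a separate check. The import peaks were also stronger, with a median of 157 against 97.1 over all bound genes. The part of signal in the shares below was not tested. Of the 33 bound genes, 31 (93.9%) had a summit within 100 bp among the 29086 strongest entries of each replicate, against 85.5% of all bound genes. The exceptions were Timm8a1 and Timm17b. In the full relaxed lists 32 had a matching entry in both replicates (97.0%, against 93.5%). At a tolerance of 50 bp among the strongest entries 28 did (84.8%, against 78.4%), and at 200 bp 31 (93.9%, against 89.1%). Across those 32 genes the replicates' log2 signals correlated with a Pearson r of 0.923 and a Spearman rho of 0.955, as a description across genes that share 2 libraries. Over all 7867 bound genes with both values Pearson's r was 0.915. Replicate 2 gave the higher signal at 30 of the 32 genes and replicate 1 at 2, Timm8a1 and Timm9. The median ratio of replicate 2 to replicate 1 was 1.31, and 1.28 over all bound genes, on scales that are not stated. The ratio ran from 0.597 at Timm8a1 to 2.06 at Tomm20, and the SD of its log2 was 0.37, against 0.54 for all bound genes.

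**Figure D2:**
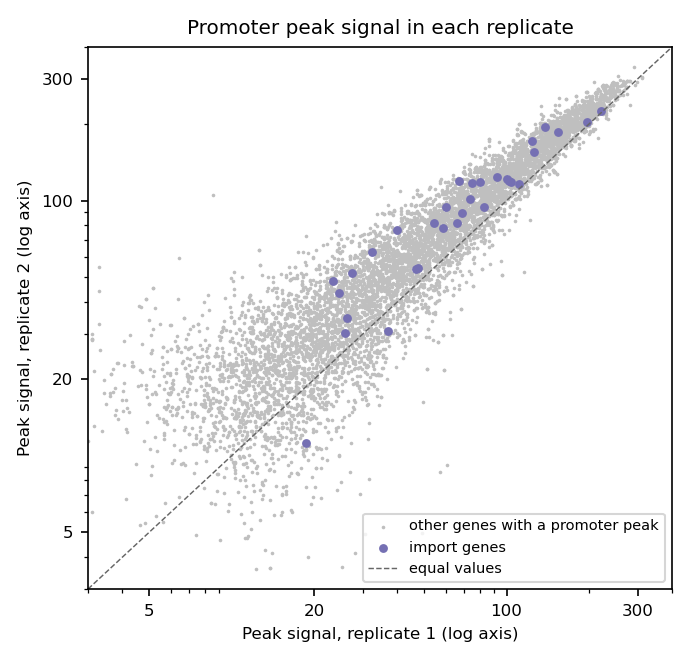
Promoter peak signal in replicate 1 (horizontal, log axis) and replicate 2 (vertical, log axis) for the 32 import genes with both values (purple) and the other bound genes (grey); the dashed line marks equal values. 30 of the 32 import genes lie above the line, and the lowest purple point is Timm8a1.

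The summits lay close to the gene starts. The median distance between summit and 5′ end was 36 bp for the 33 bound genes and 85 bp for all bound genes. It was at most 150 bp in 28 of the 33 (84.8%), against 63.7% of all. The summit lay upstream of the 5′ end in 25 genes (75.8%), against 53.9% of all, and downstream in 8. The largest distances were 560 bp upstream at Tomm40 and 297 bp downstream at Tomm6. At Tomm40 another, weaker summit of signal 42.2 lay 27 bp upstream of the 5′ end, so the strong peak, on chromosome 7 from 19715846 to 19716151 in mm10, was the more distant of the 2. At Tomm6 and Grpel1 the distance was shorter with the mm9 list and the GENCODE M1 starts, where both the list and the starts differ. There the summits lay 21 bp upstream of the nearest Tomm6 start and 20 bp inside Grpel1, against 297 bp and 152 bp from the RefSeq 5′ ends. From the outermost Tomm6 start of GENCODE M1 the mm9 summit lay 297 bp, the same distance as in mm10. Over the 25 genes with an mm9 promoter peak the median distance to the nearest start was 21 bp, against 61 bp over all genes with one, and none exceeded 171 bp. By that annotation 15 of the 25 summits lay upstream of the gene, 9 in an untranslated region and 1, at Mtx1, in coding sequence. The Mtx1 summit was still only 6 bp from the nearest of the gene's 19 starts.

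**Figure D3:**
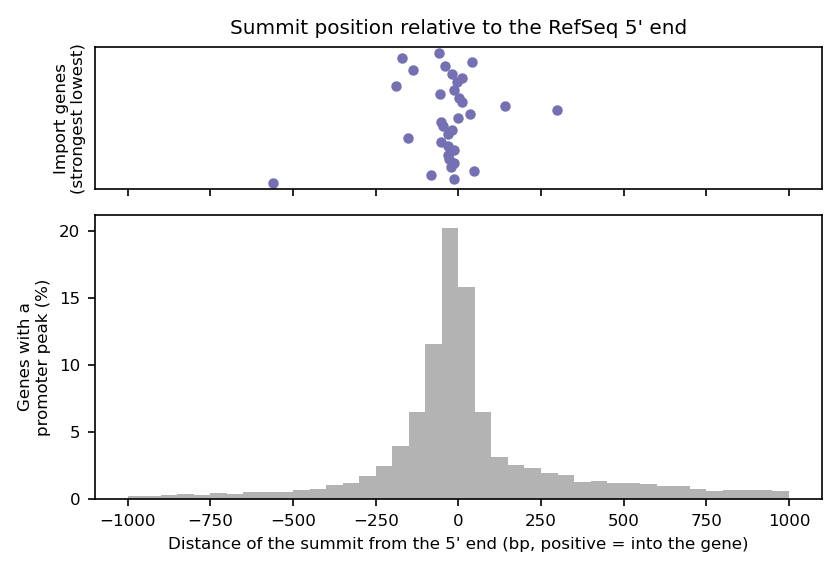
Distance of the promoter summit from the RefSeq 5′ end in bp (positive values lie inside the gene), for the 33 bound import genes (upper panel, points spread vertically by signal, strongest lowest) and as a share in percent of all 8412 bound genes (lower panel, bins of 50 bp). 28 of the 33 points lie within 150 bp of the start, and the point farthest to the left is Tomm40.

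Several peaks lay near the starts of genes on both strands, so they cannot be given to a single gene. In 11 of the 33 bound genes (33.3%, against 23.6% of all bound genes) the summit was also within 1 kb of another protein-coding 5′ end. All 11 partners were on the opposite strand. The strand of partners was not counted over all bound genes, so this shows no trait particular to the import genes. The partner of Timm8b was Sdhd, which encodes a subunit of succinate dehydrogenase in the respiratory chain, with 5′ ends 52 bp apart. Pmpca and Entr1 started 8 bp apart, Timm10b and Arfip2 29 bp, and Timm23 and Parg, the gene of an enzyme that removes poly(ADP-ribose), 39 bp. Timm17b and Pqbp1 were 67 bp apart, Timm29 and Yipf2 109 bp, Timm9 and 2700049A03Rik 140 bp, Timm10 and Smtnl1 174 bp, and Chchd4 and Tmem43 284 bp. The 5′ ends of Tomm6 and Frs3 were 779 bp apart and those of Tomm40l and Apoa2 950 bp. In these pairs the partner's start lay within the bounds of the import gene. The summit at Tomm40l was 954 bp inside Apoa2, not between the genes. The shared peaks ran from 24.0 at Timm17b to 281 at Timm10, while the strongest 3 peaks, at Tomm40, Tomm7 and Timm21, had no protein-coding partner. Starts of genes that are not protein-coding lay within 1 kb of the summits at Tomm40 (Gm38955), Tomm20 (LOC115486982), Tomm6 (Tomm6os) and Grpel1 (2210406O10Rik). The strong Tomm40 peak therefore cannot be given to Tomm40 alone either. The share of all bound genes with such a start nearby was not counted. The count of 11 would miss a partner whose start is not the RefSeq 5′ end.

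The longer ETS word was found under 12 of the 25 mm9 promoter summits (48.0%), against 29.2% of all 7271 mm9 promoter peaks. In windows of the same length centred 500 bp to each side it was found in 4.00% of windows for the import genes and 1.11% for all. The shorter CGGAAG, which the longer word contains, was under 15 of the 25 summits (60.0%, against 46.2%). The core GGAA alone was under 24 of 25 (96.0%, against 91.2%) and in 64.0% of the flanking windows. AGGAAG, the form with A in place of the C before the core, was under 7 (28.0%, against 27.0%). The longer word was within 25 bp of 10 summits (40.0%, against 20.9%) and within 100 bp of 14 (56.0%, against 32.5%). Only Tomm40l had no GGAA within 50 bp of its summit. The 12 peaks with the longer word had a median mm9 signal of 317 and the 13 without it 128, and over all mm9 promoter peaks the medians were 269 and 100.5. There were exceptions in both directions, since Tomm5, with a signal of 683, did not have CCGGAAG in the window, and Mtx2, with 152, had the longer word.

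The word lay near the summit and was repeated at some promoters. Its nearest copy was centred 0 bp from the summit at Timm10, 6 bp at Pmpcb, 9 bp at Timm8b and 10 bp at Tomm22, and farthest away, 34 bp, at Grpel1. Timm10 and Tomm22 held 3 copies within 50 bp, and Timm23 and Mtx2 held 2. The share with at least 3 was 8.00% of these 25 peaks and 0.454% of all mm9 promoter peaks, a difference that rests on these 2 genes. At Tomm22, 2 of the 3 copies overlap on opposite strands, as the bases just upstream of its start show below. T followed the word nearest the summit in 4 of 12 import genes (33.3%), Timm23, Pmpcb, Tomm70a and Mtx2, and in 41.7% of all mm9 promoter peaks with the word.

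**Figure D4:**
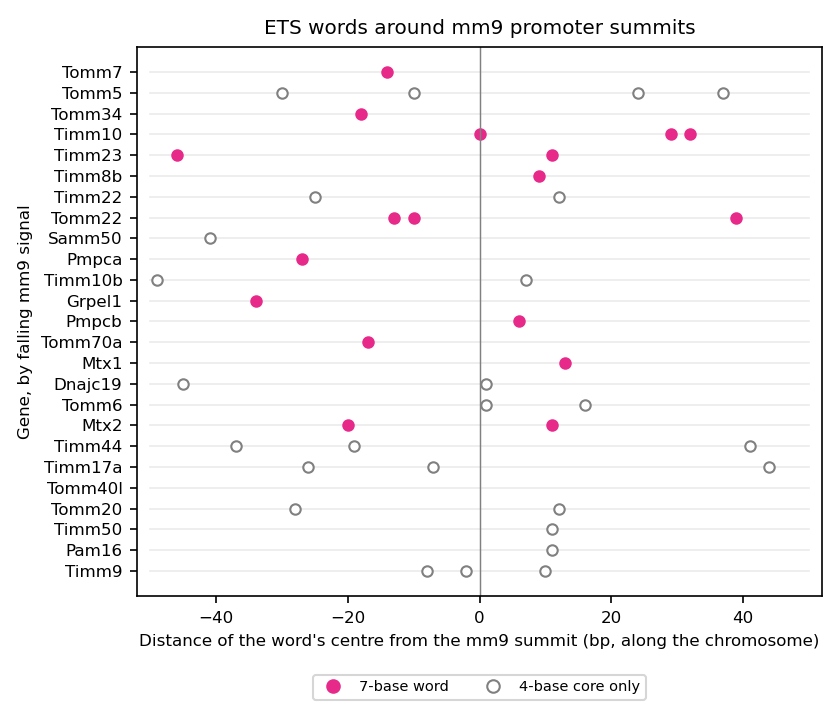
Centres of ETS words within 50 bp of the mm9 promoter summit, in bp along the chromosome, for the 25 import genes with such a peak, from the strongest (Tomm7, top) to the weakest (Timm9, bottom). Filled points are copies of the 7-base word CCGGAAG on either strand and open points the core GGAA, drawn only where the longer word is not in the window; Tomm40l has neither.

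Promoter sequence held the word at an unbound gene as well. In RefSeq's promoter sequences of GRCm38.p6, which run from 250 bases before the start to 50 after it, 14 of the 32 import genes with an entry held the word (43.8%), against 12.0% of the promoters of all genes tested, 24.2% of those of bound genes and 4.03% of those of unbound genes. CGGAAG was in 16 of the 32 (against 21.8% of all), AGGAAG in 17 (53.1%, against 34.0%) and GGAA in all 32 (95.7% of all). Most of the 32 were bound, so bound genes are the closer comparison. Among bound genes only, CGGAAG was in 15 of 29 import promoters (51.7%), against 40.3% of all bound genes. AGGAAG was in 16 of the 29 (55.2%, against 33.4%), and CCGGAAG in 13 (44.8%, against 24.2%). The last 100 bases before the start are shown for Tomm22 and Tomm70a, bound genes with copies on both strands, and for the related genes Timm8a1, bound and without the word, and Timm8a2, unbound and with 2 copies. Each runs 5′ to 3′ on the gene's strand with the word in capitals.
Tomm22, chr15:79670768-79670867, plus strand: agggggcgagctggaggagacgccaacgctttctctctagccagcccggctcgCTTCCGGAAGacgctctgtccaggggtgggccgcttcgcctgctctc
Tomm70a, chr16:57121614-57121713, plus strand: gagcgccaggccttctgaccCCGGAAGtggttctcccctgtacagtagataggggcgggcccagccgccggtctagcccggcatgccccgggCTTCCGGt
Timm8a1, chrX:134541671-134541770, minus strand: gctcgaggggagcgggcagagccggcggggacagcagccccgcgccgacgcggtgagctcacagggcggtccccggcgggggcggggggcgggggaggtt
Timm8a2, chr14:122034574-122034673, plus strand: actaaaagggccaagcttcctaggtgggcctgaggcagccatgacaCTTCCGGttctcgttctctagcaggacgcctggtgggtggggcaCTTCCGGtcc
The start of Timm8a2 in this promoter table lies inside the bounds of the gene, downstream of the RefSeq 5′ end used for the count above. It had no optimal summit within 1 kb either, since 29 of the 32 genes were bound by this set of starts (90.6%, against 42.9% of all genes with an entry), and the 3 others were again Tomm20l, Timm8a2 and Gfer.

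The promoters of these genes were rich in CpG, the base pair step that is depleted in most of the mouse genome outside such promoters. The ratio of observed to expected CpG in the 1 kb around the outermost GENCODE start had a median of 0.748 for the 36 genes and 0.549 for all. When all genes were ordered by this ratio into 10 equal groups, from the poorest to the richest, every import gene fell in groups 5 to 10. The share of all genes with an mm9 promoter peak rose from 3.17% in group 1 to 27.7% in group 5 and 66.0% in group 9. Group 8 held the most import genes, 10, of which 9 were bound in mm9, against 63.1% of all genes in that group. The count was 3 of 4 in group 5, against 27.7%, and 4 of 5 in group 6, against 48.0%. Mtx1 is 1 of the 3 in group 5. Its outermost GENCODE start is at 89031010 and its mm9 summit at 89017823, so its ratio does not describe the bound start. In group 7 it was 3 of 6, against 59.1%, in group 9, 5 of 9, against 66.0%, and in group 10, 1 of 2, against 65.7%. The unbound Timm8a2 and Tomm20l fell in groups 5 and 6, and Gfer in group 10 with a ratio of 0.931.

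The mm9 list held fewer of these genes. By all GENCODE M1 starts, 25 of the 36 (69.4%) had an mm9 summit within 1 kb, against 36.8% of all genes. These 25 were all bound in mm10 as well, and made up 75.8% of the 33, while 84.4% of 7348 mm10-bound genes matched by symbol had an mm9 promoter peak. The sets are unlike, since the 33 include Timm10b, Timm21 and Timm29, matched by synonym. Of these, Timm21 and Timm29 had no mm9 promoter peak. The 8 genes bound in mm10 only were Tomm40, Timm8a1, Timm13, Timm29, Timm17b, Timm21, Hspa9 and Chchd4. Those of Tomm40 and Timm21 were among the strongest 1000 optimal peaks, yet the nearest mm9 summit lay 34331 bp and 76414 bp from their starts. Of 814 genes with optimal peaks of that strength that were matched by symbol, as Timm21 was not, 51 had no mm9 promoter peak. For Chchd4 the nearest mm9 summit lay 1009 bp away, just outside the window. The cause of these differences between the lists was not tested.

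The other mm10 peak lists gave nearly the same set. They come from the same 2 libraries as the optimal list, and its stronger 50% is a part of it, so this is not a separate check. The conservative list had a summit within 1 kb of 33 genes (91.7%, against 38.9% of all), with Gfer in and Timm8a1 out. At 32 of the 33 optimal peaks (97.0%, against 92.8% of all bound genes) it had a summit within 100 bp. The strongest 29086 entries of replicate 1 alone had one at 34 genes (94.4%, against 39.9%), and those of replicate 2 alone at 33 (91.7%, against 40.2%). In the stronger 50% of the optimal list, 31 remained bound (86.1%, against 31.8%), without Timm8a1 and Timm17b. With the optimal list the count was 33 within 500 bp (against 36.3% of all genes), within 2 kb (against 42.4%), and when any base of a peak within 1 kb counted (against 40.1%).

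**Figure D5:**
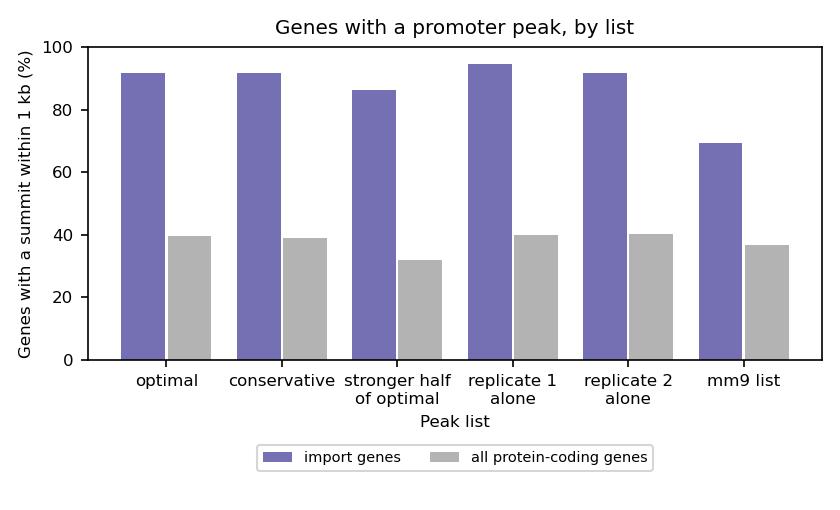
Share in percent of the import genes (purple) and of all protein-coding genes tested (grey) with a summit within 1 kb of a start, in 6 peak lists; the first 5 are mm10 lists with RefSeq 5′ ends and the last is the mm9 list with GENCODE M1 starts. The purple bars stand at 86.1% to 94.4% in the mm10 lists and at 69.4% in the mm9 list.

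Peaks away from promoters were weaker than the promoter peak at all but 5 of the bound genes that had one. The same comparison was not made over all bound genes, so it describes these genes only and shows no trait particular to them. Distal peaks were optimal summits at a distance of 2 to 50 kb that also kept more than 2 kb away from all protein-coding 5′ ends, and 25 of the 36 genes had one (69.4%, against 50.9% of all). Within 20 kb only 8 had one (22.2%, against 29.8%), so the share stood above that of all genes at the wider distance and below it at the shorter one. Up to 100 kb, 32 had one (88.9%, against 66.5%), and with the conservative list, up to 50 kb, 24 (66.7%, against 49.2%). The 5 bound genes whose strongest distal peak exceeded the promoter peak were Tomm40l, Timm17a, Timm17b, Pam16 and Chchd4. That of Pam16 had a signal of 304, 38.1 kb away on chromosome 16 from 4586673 to 4586964 in mm10, outside all gene bounds. The one of Chchd4 (137) lay 23 bp from the start of a gene that is not protein-coding. Timm9 and Tomm20l, which are neighbours on chromosome 12, count the same distal peak of signal 62.3, which lies within Tomm20l. A distal peak can belong to any gene nearby.

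Other genes of import, protein maturation, folding and quality control were bound nearly as often. Of 44 such genes 39 were bound (88.6%, against 39.5% of all genes), with a median signal of 125, against 97.1 over all bound genes. The strongest were Cox17, a copper chaperone gene whose product enters through the disulfide relay (450.4 in the optimal list, 195 in replicate 1 and 255 in replicate 2), Mtch1, a carrier-like gene of the outer membrane (447, 229.9 and 216), and Micos10 of the complex that shapes the inner membrane (394, 179 and 212). The 5 without a promoter peak were Romo1, Pitrm1, Chchd10, Apool and Oma1. Of these, Oma1, a protease gene of the inner membrane, had its nearest optimal summit 1916 bp away. That distance was 2807 bp for Chchd10, 32123 bp for Romo1, 35341 bp for Pitrm1 and 874197 bp for the X-linked Apool. Among the 39 bound genes, Hspd1 and Hspe1 share a summit, of signal 296, and were counted as separate genes.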

How the data were processed

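ELF1 ChIP-seq peak lists from 2 biological replicates of CH12.LX cells were used. As the README files deposited with the samples state, a replicate's relaxed list was made from that replicate's mm10 alignments with a control library, a further relaxed list from the pool of the replicates, the optimal and conservative lists from these by the irreproducible discovery rate, and the mm9 list from both replicates' mm9 alignments. No source used here names the aligner or the peak caller. The deposited signal in column 7 is on a scale that is not stated and differs between lists. Read depth is unknown from these lists.

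Start sites for mm10 were the 5′ ends of RefSeq genes (GRCm38.p6). Of 21900 protein-coding genes, 17492 took their strand from the RefSeq promoter table by gene identifier, 3649 from GENCODE M1 by symbol and 394 by synonym, and 365 had none and were left out. For mm9 all GENCODE M1 starts and the NCBIM37 sequence were used, and all 36 genes matched, 3 of them by synonym. Positions count from 1, each in its own build. Sequences of mm10 promoters are RefSeq's, and 32 of the 36 genes had an entry. The strongest summit within 1 kb was taken for each gene, and a replicate's value was its strongest entry within 100 bp of that summit.

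The genes, the list of other import genes and the rules were chosen with earlier results of these data known. Every member is named, and other import genes by the 3 highest signals and, where 5 or fewer were unbound, each unbound one. With 1 group of 2 replicates no test between samples was possible, and no test over the gene list was made. Alternatives were the window, the list, each replicate alone, the tolerance, the distal distance, the word and its window, and, added after seeing the data, the starts of the RefSeq promoter table. The functions were tested on simulated data with planted peaks and words. Python 3.11.15, numpy 2.4.6, pandas 2.3.3, scipy 1.17.1 and pysam 0.24.0 were used.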

Additional observations from a re-analysis of the deposited data

How the results depend on the processing

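The count of 33 bound genes of 36 stayed within 1.5 times under all 9 alternatives, from 25 with the mm9 list to 34. This bound is loose, since the count could hardly rise and only a large fall would break it. The share went from 91.7% to 69.4% with the mm9 list. With the starts of the RefSeq promoter table it was 29 of only 32 genes. The count was 33 with windows of 500 bp or 2 kb and when any base of a peak counted. With a single replicate's strongest entries it was 33 (without replicate 1) to 34 (without replicate 2). The count of peaks found in both replicates ran from 28 of 33 at 50 bp to 32 in the full relaxed lists, and the median signal of 157 went to 155 with the nearest summit. The count of genes with a distal peak fell from 25 to 8 at 2 to 20 kb, where fewer peaks are in reach, and was 32 at 100 kb and 24 with the conservative list. Of the 25 mm9 promoter peaks, 12 held CCGGAAG within 50 bp, 10 within 25 bp and 14 within 100 bp, while 24 held GGAA, which is shorter, and 7 held AGGAAG, another word. No paired analysis was possible because there was a single group. Signal could be compared within a list only, and a gene near the threshold, such as Gfer, Timm8a1 or Timm17b, changed its status with the list.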
